A study of Mus musculus with 2 samples.

Results

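The calcium pumps and calcium-handling genes of milk secretion were compared between mammary epithelial cells of Cuzd1-null mice and those of heterozygous littermates. The members were chosen by name, with earlier results of these data known. They are the plasma membrane pumps Atp2b1, Atp2b2 and Atp2b4, the endoplasmic reticulum pump Atp2a2, the Golgi pumps Atp2c1 and Atp2c2, the store-operated entry genes Stim1 and Orai1, the calcium-sensing receptor Casr and the hormone gene Pthlh. Of these 10 genes, 9 had a probe set that carried 1 gene symbol, with 25 probe sets in all, against 18193 such genes on the array. Pthlh, which encodes parathyroid hormone-related protein, was not analysed here.

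Both groups were females on day 18 of pregnancy, shortly before birth, of a predominantly C57BL/6 background. The null mice lacked Cuzd1 through homologous recombination in embryonic stem cells, and the heterozygous littermates kept 1 intact allele, so no wild-type gland entered the comparison. Inguinal glands were digested with hyaluronidase and collagenase, and the cells were collected by centrifugation with no recorded sort. RNA of 5 mice of each genotype was pooled on 1 array. The 2 arrays therefore hold no replicate error, no test was run, and every difference below is one between these 2 pools.

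Milk holds far more calcium than blood plasma, and secretory cells of the gland move that calcium while keeping their cytosol low in it. Calcium that enters through channels such as Orai1 is pumped into the endoplasmic reticulum by Atp2a2 (SERCA2) and into the Golgi by Atp2c1 and Atp2c2 (SPCA1 and SPCA2), where it binds casein. Atp2b2 (PMCA2), the pump of the apical membrane, exports calcium into milk and is strongly induced in the mouse gland toward lactation.

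The values are linear signal intensities made by the authors with MAS5, a summary method that scales each array by 1 global factor. A signal below the array's median was treated as background, so each array was floored at that median, 32.5 units on the null array and 34.2 units on the heterozygous array. The null array had 11330 genes above its floor and the heterozygous array 11173, and the 11893 that passed on at least 1 of them are called measured. A gene was represented by its brightest probe set, and a log2 ratio is that of null over heterozygous. With 1 array a group, "called" means at least 2-fold apart. The targeted gene read at the floor on both arrays, with 34.0 units in null cells and 32.4 units in heterozygous cells, so it does not check the labels. The sources used here do not place its probe set relative to the deletion. The 9 hybridization controls, normally added in equal amounts, had a median log2 ratio of -0.23, with 8 below 0. The 12 poly-A control probe sets had a median of -0.26. With the null array rescaled to the hybridization controls, the median gene above both floors stood at 0.26, against 0.03 as deposited. The rank of a measured member among all measured genes is therefore given beside its ratio, except for Casr, which was at the limit of detection.

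The apical pump Atp2b2 was at least 4.24-fold lower in null cells, and no other measured member was 2-fold apart. The Golgi pumps Atp2c2 and Atp2c1 followed, with log2 ratios of -0.56 and -0.45, while Atp2b1 and Stim1 lay above 0 at 0.30 and 0.38. Of the 8 measured members, 1 was thus lower by 2-fold or more and 0 were higher by that much. Over all 11893 measured genes the shares were 1.03% lower and 1.12% higher. Of the 18 measured member probe sets, 2 were lower by 2-fold or more, against 1.08% of all measured probe sets with a gene name. Both belong to Atp2b2 and passed the floor only on the heterozygous array, so they add nothing beyond that gene. At 1.5-fold the member count was again 1 lower and 0 higher, with 4.93% and 5.83% of all measured genes. A share of 1 in 8 rests on a single gene, in a list chosen with earlier results of these data known. The median log2 ratio of the measured members was -0.22, against 0.03 for all measured genes. Of the 6 members above both floors, 4 had a ratio below 0 and 2 above it, with a median of -0.22, while 45.3% of all genes above both floors lay below 0. On the hybridization-control scale the median of the 8 measured members became 0.00903, against 0.26 for all measured genes.

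**Figure D1:**
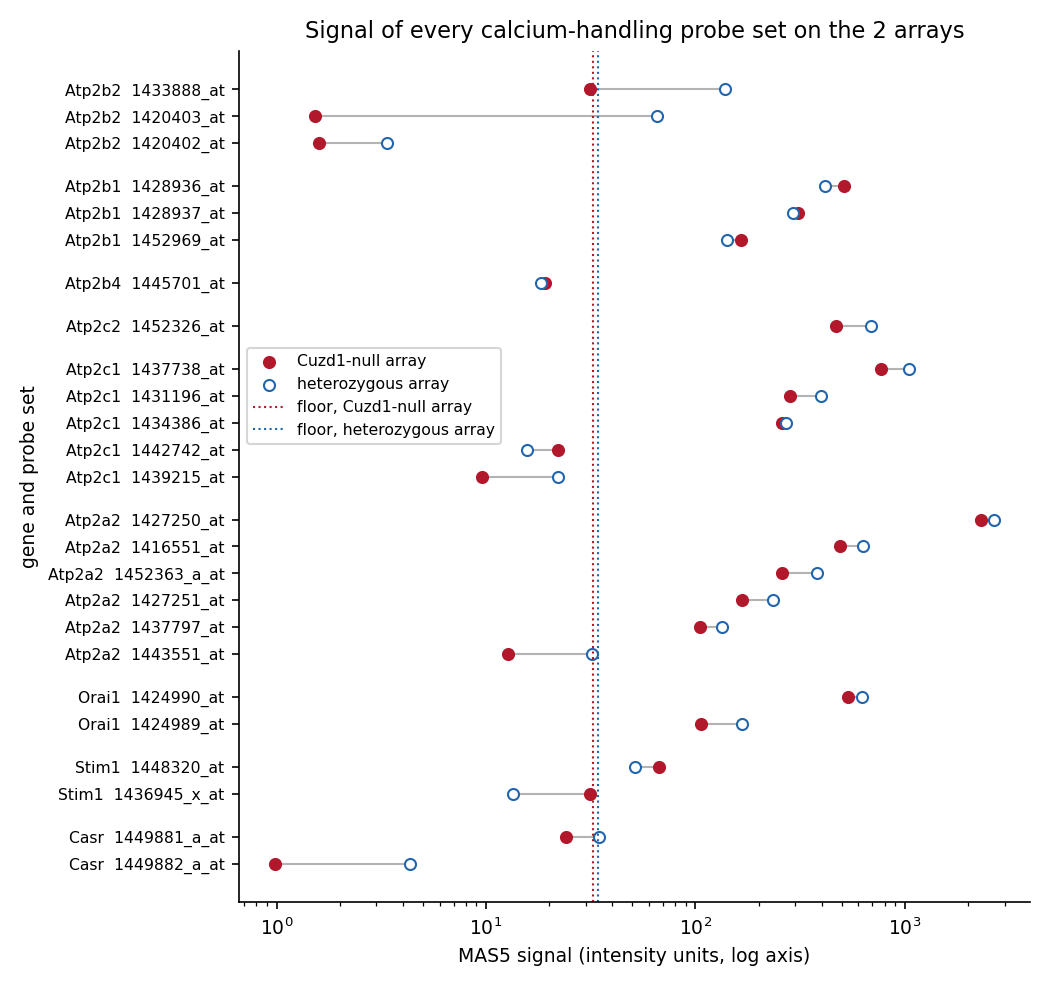
MAS5 signal in intensity units (log axis) of all 25 member probe sets, with the null array as filled points, the heterozygous array as open points and each array's floor as a dotted line. Atp2b2 shows the widest gaps among probe sets above a floor, 7 probe sets lie below both floors, and the probe sets of Atp2b1 lie slightly to the right in null cells.

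Plasma membrane pumps differed among themselves. The brightest probe set of Atp2b2 (1433888_at) read 31.3 units in null cells, just below the floor, and 137.9 units in heterozygous cells. This makes Atp2b2 at least 4.24-fold lower, and its log2 ratio is at most -2.08. A second probe set (1420403_at) read 1.52 units in null cells and 65.7 units in heterozygous cells, at least 2.02-fold lower. Both probe sets were thus above the floor in heterozygous cells and below it in null cells. The third (1420402_at) was below both floors, at 1.60 units in null cells and 3.37 units in heterozygous cells.

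Atp2b2 counted as measured through the heterozygous array alone, so its ratio is a limit set by the floor, and its place among other genes describes that limit. Genes above the floor in heterozygous cells and below it in null cells numbered 563 (4.73% of those measured), and 0 of them had a lower limit. The 5 measured genes with a lower ratio were above both floors. The robust SD of ratios in its bin of 594 genes of like signal, taken from the median absolute deviation, was 0.42, a spread over genes that stands in for no replicate. In a bulk sample, fewer cells of a type and less RNA per cell cannot be told apart. The 3 genes with the most similar pair of floored signals were Evc, Nagpa and Epgn, at distances of 0.09 each on the log2 scale over the 2 arrays. Their signals were 26.9, 24.9 and 24.1 units in null cells, all below the floor, and 129.9, 129.2 and 129.1 units in heterozygous cells. With Atp2b2 also set to the floor on the null array, the distances come from the heterozygous signals alone.

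The sequences before the 3 annotated starts of Atp2b2 are shown because it was the member that stood furthest apart. RefSeq's table (GRCm38.p6) gave 12 windows upstream of annotated starts for 8 of the 10 members, with none for Atp2a2 or Atp2c2. Each line holds the 250 bases before a start, on the gene's strand. The windows were searched for TTCNNNGAA, the core that STAT factors bind. The motif is its own reverse complement, so both strands are read at once, and it overlaps no other motif searched. Capitals mark it, and Atp2b2 has none:
Atp2b2 chr6:114042081-114042330 (-): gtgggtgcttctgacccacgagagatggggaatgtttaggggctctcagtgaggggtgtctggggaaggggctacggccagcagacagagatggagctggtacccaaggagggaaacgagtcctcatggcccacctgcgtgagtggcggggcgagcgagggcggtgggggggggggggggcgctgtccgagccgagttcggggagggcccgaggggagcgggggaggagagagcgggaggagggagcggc
Atp2b2 chr6:113934682-113934931 (-): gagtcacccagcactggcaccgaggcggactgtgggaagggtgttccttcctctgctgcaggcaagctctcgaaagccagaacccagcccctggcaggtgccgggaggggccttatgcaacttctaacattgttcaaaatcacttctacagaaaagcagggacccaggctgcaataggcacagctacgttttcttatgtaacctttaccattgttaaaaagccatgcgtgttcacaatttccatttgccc
Atp2b2 chr6:113891540-113891789 (-): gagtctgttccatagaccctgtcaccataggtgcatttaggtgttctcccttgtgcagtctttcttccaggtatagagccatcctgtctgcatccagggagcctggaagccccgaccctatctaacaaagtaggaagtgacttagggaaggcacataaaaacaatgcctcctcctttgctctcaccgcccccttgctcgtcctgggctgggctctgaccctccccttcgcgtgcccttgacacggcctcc

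The GC content of these windows was 69.6%, 52% and 55.6% in the order printed, against a median of 52.4% over all 32851 windows of the table. TTCNNNGAA occurred in 1 of the 12 member windows, and in 7.02% of all windows of this length. That window belongs to Orai1, where the motif begins 207 bases before the start, and is printed because it alone holds the motif:
Orai1 chr5:123014824-123015073 (+): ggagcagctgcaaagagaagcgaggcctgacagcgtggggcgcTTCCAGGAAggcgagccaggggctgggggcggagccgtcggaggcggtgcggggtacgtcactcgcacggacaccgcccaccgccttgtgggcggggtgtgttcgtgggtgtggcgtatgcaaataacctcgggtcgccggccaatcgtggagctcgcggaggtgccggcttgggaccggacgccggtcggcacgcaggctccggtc
A match is only a description of these letters. The array reads transcripts near their 3′ end, and the sources used here do not place the probe sets within their transcripts, so the starts in use cannot be read from it.

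Atp2b1 (PMCA1), the widely expressed plasma membrane pump, lay on the other side of 0. Its brightest probe set (1428936_at) read 514.0 units in null cells and 416.9 units in heterozygous cells, a log2 ratio of 0.30. The others read 307.7 and 164.4 units in null cells, against 293.3 and 141.4 units in heterozygous cells, with ratios of 0.07 and 0.22. All 3 were above 0, as in 18.3% of the 1890 genes with at least 3 probe sets above both floors. Of all measured genes, 81.0% had a lower ratio than Atp2b1, whose bin had a robust SD of 0.25. Atp2b4 (PMCA4), the remaining plasma membrane pump, was below both floors at its single probe set, with 19.1 units in null cells and 18.2 units in heterozygous cells, and no fold is given. No probe set of one pump can be set against that of another, since their binding differs, so the levels of the pumps are not ordered.

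**Figure D2:**
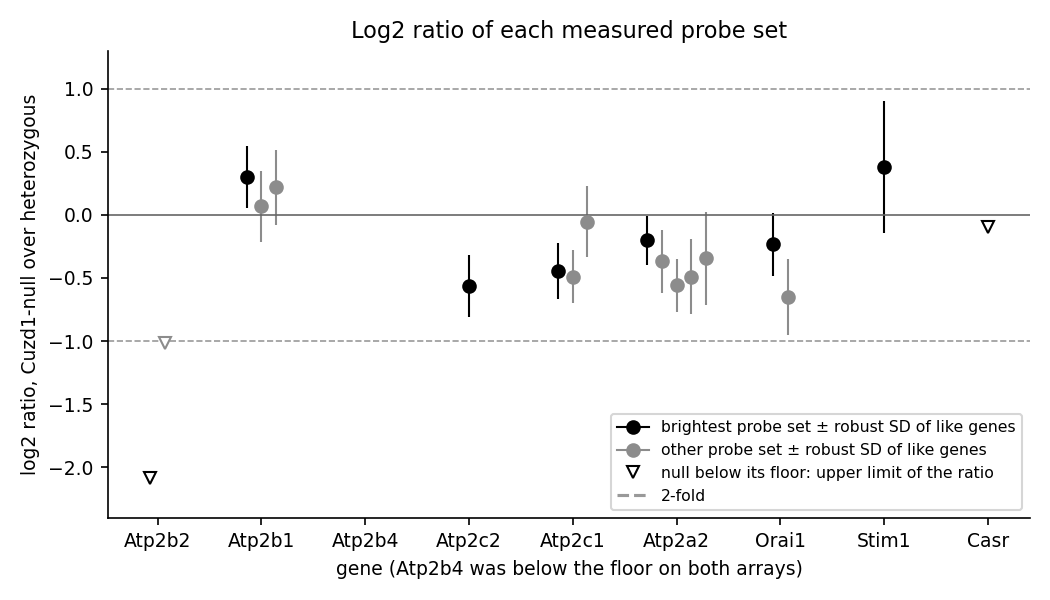
Log2 ratio of null over heterozygous (vertical axis) of the 18 measured probe sets by gene, with the robust SD of measured genes of like signal as bars, open triangles for upper limits where null was below its floor, and dashed lines at 2-fold. The triangles of Atp2b2 lie at -2.08 and -1.01, the points of Atp2a2, Atp2c1 and Orai1 lie below 0 at all their measured probe sets, and those of Atp2b1 above 0. On the hybridization-control scale the brightest probe set of Atp2a2 lies at 0.02, that of Orai1 at -0.01 and the dimmest measured one of Atp2c1 at 0.17.

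The Golgi pumps were lower in the null pool at all 4 of their probe sets above both floors as deposited, by less than 2-fold. On the hybridization-control scale 1 of the 4 crossed 0 (1434386_at of Atp2c1, at 0.17). Atp2c2, the form largely limited to secretory epithelia, read 469.1 units in null cells and 692.2 units in heterozygous cells at its single probe set (1452326_at). The log2 ratio was -0.56, which is 1.48-fold lower, and 5.36% of measured genes had a lower one. Within its bin of 594 genes, 13 were lower, and the robust SD was 0.25. On the hybridization-control scale it was -0.33.

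Atp2c1, the Golgi pump found in most tissues, had 3 of 5 probe sets above both floors. Its brightest (1437738_at) read 771.1 units in null cells and 1050.3 units in heterozygous cells, a log2 ratio of -0.45. The next (1431196_at) read 283.3 units in null cells and 397.7 units in heterozygous cells, with a ratio of -0.49. The remaining one (1434386_at) read 260.0 units in null cells and 270.0 units in heterozygous cells, a ratio of -0.05, well inside the robust SD of 0.28 in its bin. A run of all probe sets below 0 was seen in 19.3% of genes with at least 3 above both floors. By its brightest probe set, 8.44% of measured genes were lower than Atp2c1.

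Atp2a2, the pump that fills the endoplasmic reticulum, was measured by 5 probe sets, and all lay below 0 as deposited. The brightest (1427250_at) read 2308 units in null cells and 2656 units in heterozygous cells, a log2 ratio of -0.20 that became 0.02 on the hybridization-control scale. The 4 dimmer probe sets lay further from 0, between -0.34 and -0.56. The widest gap was at 1452363_a_at, with 259.7 units in null cells and 382.4 units in heterozygous cells. A sign below 0 at all probe sets was found in 14.4% of the 277 genes with at least 5 above both floors. The brightest probe set was not extreme, since 22.6% of measured genes had a lower ratio. The sixth probe set was below both floors, at 12.7 units in null cells and 32.2 units in heterozygous cells.

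**Figure D3:**
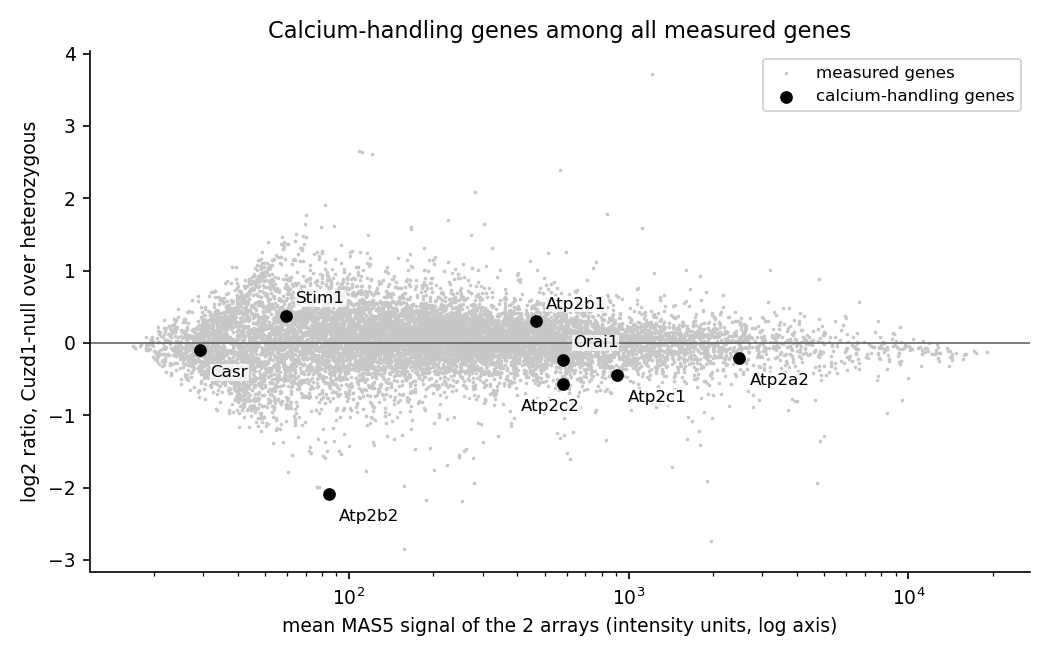
Log2 ratio of null over heterozygous against the mean MAS5 signal of the 2 arrays (log axis) for the 11893 measured genes in grey, with the 8 measured members in black. Atp2b2 lies at the lower edge of the cloud at -2.08, while the other members lie inside it between -0.56 and 0.38.

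Genes of store-operated entry lay on both sides of 0. Orai1, the pore that admits calcium through the plasma membrane once stores are low, read 532.9 units in null cells and 626.8 units in heterozygous cells at its brightest probe set (1424990_at). The log2 ratio was -0.23, or -0.01 on the hybridization-control scale. Of all measured genes, 19.9% had a lower ratio. Its dimmer probe set (1424989_at) read 105.8 units in null cells and 166.3 units in heterozygous cells, a ratio of -0.65 and the lowest among member probe sets above both floors. Stim1, the store sensor that opens Orai1, read 67.1 units in null cells and 51.6 units in heterozygous cells (1448320_at). Its ratio of 0.38 was inside the robust SD of 0.52 among genes that dim, and 86.3% of measured genes had a lower one. The other probe set of Stim1 was below both floors, at 31.4 units in null cells and 13.4 units in heterozygous cells.

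Casr, the receptor through which mammary cells sense extracellular calcium, was at the limit of detection. Its brighter probe set (1449881_a_at) read 24.0 units in null cells, below the floor, and 34.7 units in heterozygous cells, just above it. The upper limit of -0.09 is close to the -0.07 that the unequal floors give by themselves, so no direction is given. The other probe set was below both floors, at 0.98 units in null cells and 4.34 units in heterozygous cells.

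**Figure D4:**
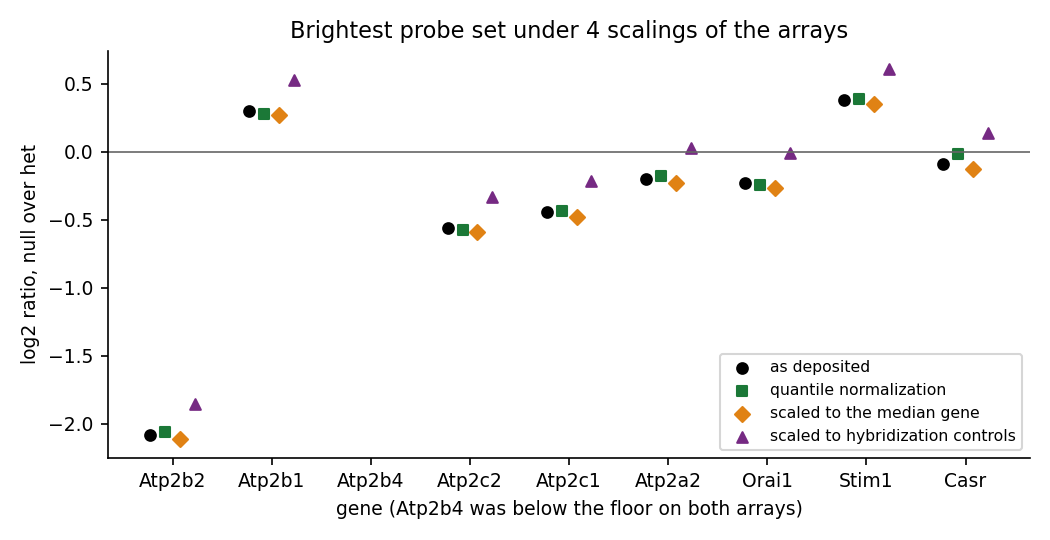
Log2 ratio of null over heterozygous (vertical axis) of the brightest probe set of each measured member, as deposited and after 3 other scalings. Atp2b2 stays at or below -1.86 and Atp2b1 and Stim1 stay above 0 at each scaling, Atp2c1 and Atp2c2 stay below 0, and Atp2a2 and Casr cross 0 when scaled to the hybridization controls. The points of Atp2b2 and Casr are upper limits.

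Beyond the members, 9 lists of other calcium-handling genes held 93 genes, of which 83 had a probe set and 58 were measured. Of the 58, 1 was higher and 1 lower by 2-fold or more, against 1.12% and 1.03% of all measured genes. The median log2 ratio was -0.11 against 0.03 for all measured genes. The 2 called genes belong to the lists of calcium sensing and of milk carriers.

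Among calcium-sensing and PTHrP signalling genes, 9 of 12 were measured, with a median of 0.02. Of the 9, 1 was at least 2-fold higher and 0 lower, against 1.12% and 1.03% of all measured genes. With a 75th percentile floor 0 were called, and with no floor 4 of 12. Cyp24a1, the enzyme that inactivates the vitamin D hormone, read 275.9 units in null cells and 124.3 units in heterozygous cells, 2.22-fold higher. Its other probe set gave a log2 ratio of 1.69, from 192.3 units in null cells and 59.6 units in heterozygous cells. Vdr, the vitamin D receptor, had the lowest ratio among those above both floors, -0.17, at 769.5 units in null cells and 862.9 units in heterozygous cells. Pth1r, the receptor of PTHrP, was just above the floor in heterozygous cells, at 35.2 units, and below it in null cells. Its upper limit of -0.12 is close to the -0.07 that the unequal floors give by themselves, so no direction is given. Gnas, the stimulatory G protein subunit and the brightest gene of the list, had 0.02. Cyp27b1, the enzyme that makes the hormone, was below both floors.

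Milk calcium and phosphate carriers were all measured, 10 of 10, with 9 below 0 as deposited, against 46.0% of all measured genes. Of the 10, 1 was at least 2-fold lower and 0 higher by the brightest probe sets. Their median was -0.17, which became 0.06 on the hybridization-control scale. With the median over probe sets, 2 of the 10 were called. Csn1s2b, a casein that binds calcium phosphate, read 799.7 units in null cells and 3011 units in heterozygous cells, 3.76-fold lower. Probe sets of the same casein differed widely. Csn1s2a had ratios of -0.22 and -0.16 at its bright probe sets, with 14513 and 13569 units in null cells, against 16941 and 15165 units in heterozygous cells. At 2 dimmer ones it had -3.52 and -3.55, with 126.4 and 84.7 units in null cells, against 1448 and 990.9 units in heterozygous cells. For Csn3 the brightest probe set gave -0.11, and a dimmer one gave -1.11, with 219.1 units in null cells and 473.0 units in heterozygous cells. Csn1s1, the brightest of the list, had a ratio of -0.14, and Slc20a1, a sodium-phosphate transporter, the highest, 0.24. Slc34a2, the epithelial sodium-phosphate cotransporter, was not called, with 515.0 units in null cells and 996.2 units in heterozygous cells, a ratio of -0.95. Lalba, a calcium-binding subunit of lactose synthase, had -0.52. Slc34a2, Lalba, Csn1s2a and Csn3 were named after their values were seen.

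No measured gene of the other 7 lists was 2-fold apart with the median floor. With a 25th percentile floor 2 entry channels, 1 pump or exchanger and 1 store gene were, and with no floor these counts were 4, 2 and 2, with 1 pump partner and 1 cytosolic buffer. Pump partners and regulators had a median of -0.33 over 4 measured genes. Tmem165, a Golgi protein needed for manganese and calcium supply there and both the brightest and the lowest of them, read 2062 units in null cells and 3276 units in heterozygous cells, a ratio of -0.67. Bsg, a chaperone of plasma membrane pumps, had the highest ratio, 0.08. The other pumps and exchangers had a median of 0.11 over 4 measured genes of 12. They ran from -0.33 for Slc24a3 to 0.45 for Atp2b3, a lower limit since it was above the floor only in null cells, and Slc8b1, a mitochondrial exchanger and the brightest of them, had 0.01.

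Store release and entry genes had a median of -0.11 over 7 measured genes, from -0.43 for Orai3 to 0.57 for Itpr2, with -0.11 for Saraf, the brightest. Plasma membrane entry channels had -0.09 over 6, a median set by the floor limits of Trpv4 and Cacna1c. Over the 4 above both floors the median was 0.05, of the other sign. These 4 ran from -0.55 for the mechanosensitive channel Piezo1, also the brightest, to 0.56 for Cacna1d. Trpv4 passed its floor only in null cells (32.6 units, against 4.99 units in heterozygous cells) and Cacna1c only in heterozygous cells (19.9 units in null cells and 35.3 units in heterozygous cells). Trpv6, the epithelial calcium channel, was below both floors. Calcium binding proteins of the endoplasmic reticulum and Golgi had 0.01 over 11, with 6 above 0. They ran from -0.76 for Nucb2 (1350 units in null cells and 2290 units in heterozygous cells) to 0.47 for Rcn3, and Hspa5, the brightest, had -0.24. Mitochondrial uptake genes had -0.14 over 5, from -0.14 for Letm1 to 0.39 for Micu2, with -0.14 for Smdt1, the brightest. Of the cytosolic buffers, 2 of 6 were measured, Anxa6 with 0.26 and Sri with 0.28, a median of 0.27, while Calb1 and S100g were below both floors.

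**Figure D5:**
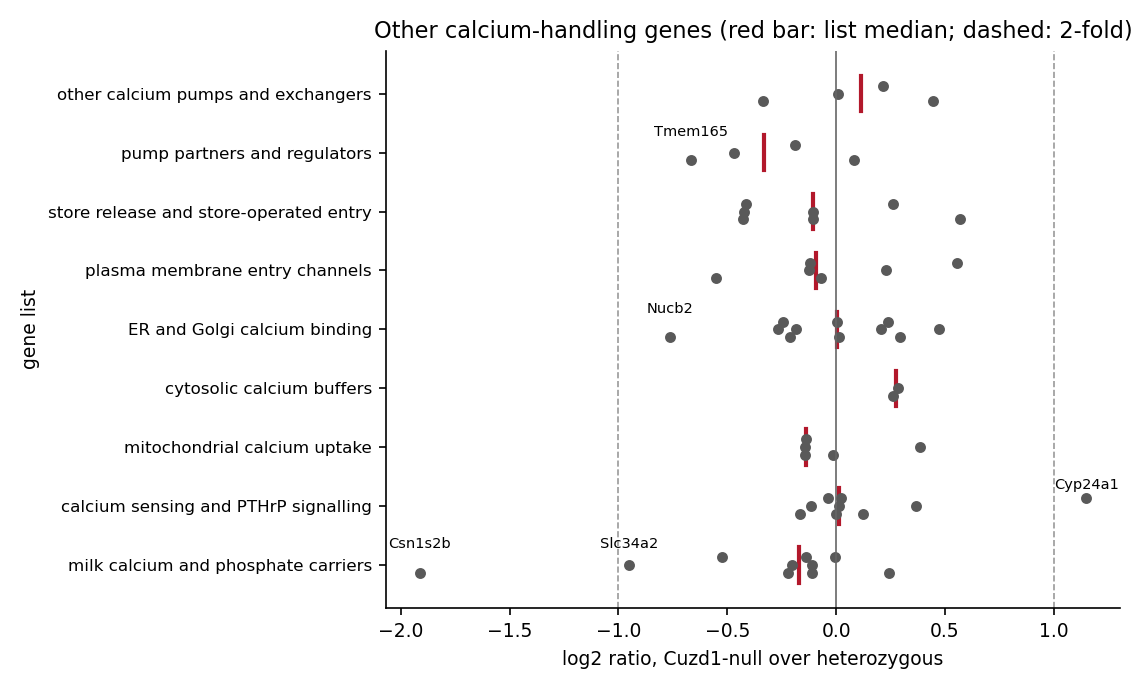
Log2 ratio of null over heterozygous (horizontal axis) of the 58 measured genes of 9 other calcium-handling lists, with list medians as red bars and dashed lines at 2-fold. By the brightest probe sets, Cyp24a1 lies above 2-fold at 1.15 and Csn1s2b below at -1.91, Slc34a2 is just inside at -0.95, and the other genes lie between -0.76 and 0.57, those below 1 of the floors at their limits. On the hybridization-control scale the median of the carriers is 0.06.

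Markers of other cell types differed between the pools beside these values. Over all measured genes, 46.0% lay below 0, 1.12% were at least 2-fold higher and 1.03% lower. All 12 luminal markers were above both floors, with a median of -0.005 and 6 of 12 above 0 as deposited, or 0.22 and 11 of 12 on the hybridization-control scale, a summed signal of 62711 units in null cells and 61390 units in heterozygous cells, 0.22 for Krt18 and -0.53 for Muc1. Fibroblast markers were higher in null cells for 10 of 10 as deposited and for 9 of 10 when scaled to the median gene, 2 of them at least 2-fold (sum 11458 units in null cells and 7556 units in heterozygous cells), with 1.61 for Pdgfra and 0.41 for Col3a1. Endothelial markers were higher for 10 of 10 by the brightest probe sets and for 9 of 10 with the median over probe sets. By the brightest, 1 was at least 2-fold higher (sum 3088 units in null cells and 2224 units in heterozygous cells), with 1.32 for Vwf and 0.42 for Cldn5. Macrophage and myeloid markers were above 0 for 8 of 9 (12180 units in null cells and 9451 units in heterozygous cells), with 0.50 for Csf1r and 0.33 for Lyz1. B and plasma cell markers were above 0 for 5 of 6, 3 at least 2-fold, with 3.71 for Ighm. Igha lay below 0 at -0.38, and Cd79a, Ms4a1 and Mzb1 passed the floor only in null cells, so their ratios are lower limits. The summed signal was 3105 units in null cells and 637.1 units in heterozygous cells, with Cd79b included although it was below both floors. Ighm alone gave 2252 units in null cells and 171.9 units in heterozygous cells. Myoepithelial markers had a median of -0.07, or 0.16 on the hybridization-control scale (25084 units in null cells and 27142 units in heterozygous cells), with -0.11 for Acta2 and -0.69 for Krt14. Of the 10, 3 were above 0 as deposited, the highest being Trp63 with 0.53, and 7 on the hybridization-control scale. Adipocyte markers had a median of -0.28 over 5 measured, which is the upper limit of Lep, and -0.15 over the 3 above both floors. With a 75th percentile floor their median was 0.03 over 2 measured, and on the hybridization-control scale -0.05. Fabp4 had -0.15 and Adipoq an upper limit of -1.03, while Lipe had 0.22, the 1 of the 5 above 0 as deposited. Their summed signal was 6660 units in null cells and 7341 units in heterozygous cells, with Cidec included although it was below both floors. T and NK, erythroid and skeletal muscle markers were dim, with medians of 0.11 over 5, -0.07 over 3 and 0.18 over 3. Without a floor the erythroid median was 0.84 over 5 genes, of the other sign. The part of cell make-up in the calcium-handling values was not tested.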

How the data were processed

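The authors deposited a linear intensity for each probe set on each array. Per the submitters' processing notes, these came from MAS5 and from version 1 of Affymetrix Expression Console. The genome build is not given in the sources. The 2% trimmed mean was 150.0 on both arrays, so each carries 1 global factor. Of 45037 non-control probe sets, 34945 had 1 gene symbol in the platform's annotation table, 932 had several and were not used, and 9160 had none there. Symbols were updated through Entrez IDs in RefSeq, which held those of 34754.

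From these intensities, in python 3.11.15 with numpy 2.4.6 and pandas 2.3.3, each array was floored at its median and log2 ratios of null over heterozygous were taken. Robust SDs came from 20 bins of the measured genes by mean signal. With 1 array a group no test was run, the number of arrays limits the precision, and "called" means at least 2-fold apart. The procedure was tested on simulated data with changes planted only in brighter genes and a smaller spread than the data. It therefore does not bear on ratios set by the floor. Named are all members, and of each calcium list the called, highest, lowest and brightest genes. Outside this rule, Cyp27b1, Trpv6, Calb1, S100g, Pth1r, Trpv4, Cacna1c and Itpr3 are also named. So are the genes said to be named or chosen after their values were seen. Of each marker list that was not dim, the brightest gene and the one furthest from 0 are named. Further myoepithelial, B and plasma cell and adipocyte markers are named because they limit the values of their lists. The members and lists were chosen with earlier results of these data known. Alternatives were other floors, scalings, a pseudocount of 16, a median over probe sets and a 1.5-fold rule. Promoter windows are from RefSeq (GRCm38.p6).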

Additional observations from a re-analysis of the deposited data

How the results depend on the processing

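The count of members at least 2-fold lower was 1 under every alternative except a 75th percentile floor, where Atp2b2 was no longer measured and the count was 0 of 5 measured members. The median log2 ratio of the members was 0.00903 when scaled to the hybridization controls, against -0.22 as deposited, and ran from -0.41 to -0.21 under the other alternatives. The ratio of Atp2b2 ran from -2.14 with no floor to -1.55 with the median over probe sets. That of Casr ran from -0.53 with no floor to 0.13 on the hybridization-control scale. Among the calcium lists, the calls of calcium sensing genes ended with the 75th percentile floor, and of the 7 lists with 0 calls, 3 had calls with the 25th percentile floor and 5 with no floor. Over all genes, calls were 133 higher and 123 lower as deposited (52.0% of them higher), 666 and 817 with a 25th percentile floor, 24 and 39 with a 75th percentile floor (38.1% higher), 1676 and 1883 with no floor, 349 and 59 (85.5% higher) on the hybridization-control scale and 64 and 71 with the pseudocount. Rescaling to the hybridization controls raises every null signal by the same factor, so all ratios move up together by construction. Why these controls and the genes differ, and the cause of the other shifts, was not tested. No paired analysis was possible because each genotype has 1 array. No replicate could be left out, and low signal limits Atp2b4, Casr and Stim1.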

Other observations

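Receptors that release calcium from the endoplasmic reticulum lay on opposite sides of 0. Itpr2 had 3 probe sets above both floors, with log2 ratios of 0.57, 0.23 and 0.67, and read 135.6 units in null cells and 91.4 units in heterozygous cells at the brightest. Itpr3 read 148.9 units in null cells and 199.8 units in heterozygous cells at its single probe set, a ratio of -0.42. The difference between the 2 genes was not tested.

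Probe sets of 1 gene did not always share a side. Gna11, a G protein subunit downstream of Casr, had ratios of 0.37 and -0.16. Hspa5, a chaperone that also stores calcium, had -0.24, -0.31 and, at a dimmer probe set, 0.26. Anxa6, a membrane-binding calcium protein, had 0.26 and 0.50 at its brighter probe sets and -0.10 at a dimmer one, with an upper limit of -0.86 at another. These genes were chosen after their values were seen.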
